A study of Homo sapiens with 4 samples.

Results

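The genes described are the axon guidance ligands and receptors of GBM8401 cells, a human malignant glioma line cultured in medium with serum. They were taken by symbol from the gene annotation: the protein-coding members of the semaphorin (SEMA), plexin (PLXN), ephrin (EFNA, EFNB), Eph receptor (EPHA, EPHB), Slit, Robo and UNC5 families, with the neuropilins NRP1 and NRP2 and the netrins NTN1 and NTN4. The rule found 67 genes among the 58219 gene IDs of the table, of which 33 encode ligands and 34 receptors. UNC5CL came in by its symbol, although its product lacks the extracellular part that binds netrin. UNC50 and the SLITRK genes share only letters of the symbol and were left out.

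RNA was compared between a GBM8401 line resistant to temozolomide (TMZ), an alkylating drug given against glioblastoma, and the parental GBM8401 line. The resistant line had been raised in medium with 200 µM TMZ, renewed over 140 days, and each group held 2 libraries. Both resistant libraries came from a single derived line, so the p-values measure the spread between these cultures and not between lines derived independently. The study profiled mRNA and long noncoding RNA linked to drug resistance.

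Axon guidance cues are secreted or membrane-bound proteins that steer growing axons and migrating cells by attraction or repulsion. Semaphorins act on plexins, secreted class 3 semaphorins mostly with a neuropilin as the binding partner. Ephrins act on Eph receptor tyrosine kinases and can signal back into the cell that carries them, Slits act on Robo receptors, and netrins on DCC, neogenin and the UNC5 receptors. The same families guide blood vessels and are known for roles in adhesion and migration of glioma cells.

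Values are the deposited scaled fragments: the number of sequenced fragments of a gene scaled to a common level between libraries, with no correction for gene length. Deposited totals were 23163310 to 24225039 in resistant libraries and 24791254 to 25832511 in parental libraries. The libraries of a group correlated at a Pearson r of 0.991 (resistant) and 0.989 (parental) over log2 values of tested genes, against 0.965 to 0.971 between groups. Of glial and glioma markers, vimentin (VIM), nestin (NES), the glutamate transporter SLC1A3 and OLIG2 were expressed, whereas GFAP was at 1.499 and 0 scaled fragments in resistant libraries and at 1.63 and 2.87 in parental libraries. AQP4, S100B and SOX2 also stayed under the level needed for a test. Among the expressed markers NES (log2 fold change −1.06) and VIM (−0.61) fell and SLC1A3 (0.48) rose, and their part in the changes of guidance genes was not tested.

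Guidance genes went both ways in resistant cells. Of the 67 genes 57 reached the level for a test, a value of at least 10 in at least 2 libraries. Among these 12 rose and 9 fell (limma, Benjamini-Hochberg adjusted p under 0.05 over all genes tested). This is 36.8% of the tested members, beside 37.1% of all 16132 genes tested. The share of members higher was 21.1% against 16.2% of all genes, and the share lower 15.8% against 20.9%. Every member is protein-coding. Of the 13313 protein-coding genes tested 39.7% were called, 2114 higher and 3166 lower, with 931 called at least 2-fold. The median log2 fold change was 0.07 for the members and −0.02 for all genes. In 38 of the 57 members (66.7%) the libraries of the groups did not overlap, beside 68.6% of all genes. At least 2-fold changes were called in 7 members (12.3%), 2 higher and 5 lower, beside 8.41% of all genes. Of the 2 higher, SEMA5B reached the level for a test only through the resistant libraries, so its call depends on the filter. With a stricter filter on low values (14106 genes tested) SEMA5B was not tested, and 11 members rose and 9 fell. Without resistant replicate 1 the counts were 7 higher and 7 lower, and without resistant replicate 2 they were 5 and 7. With scaling to the library total 15 rose and 8 fell, and 56.9% of the calls over all genes were higher instead of 43.7%. Without trend and robust moderation 8 rose and 7 fell.

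**Figure D1:**
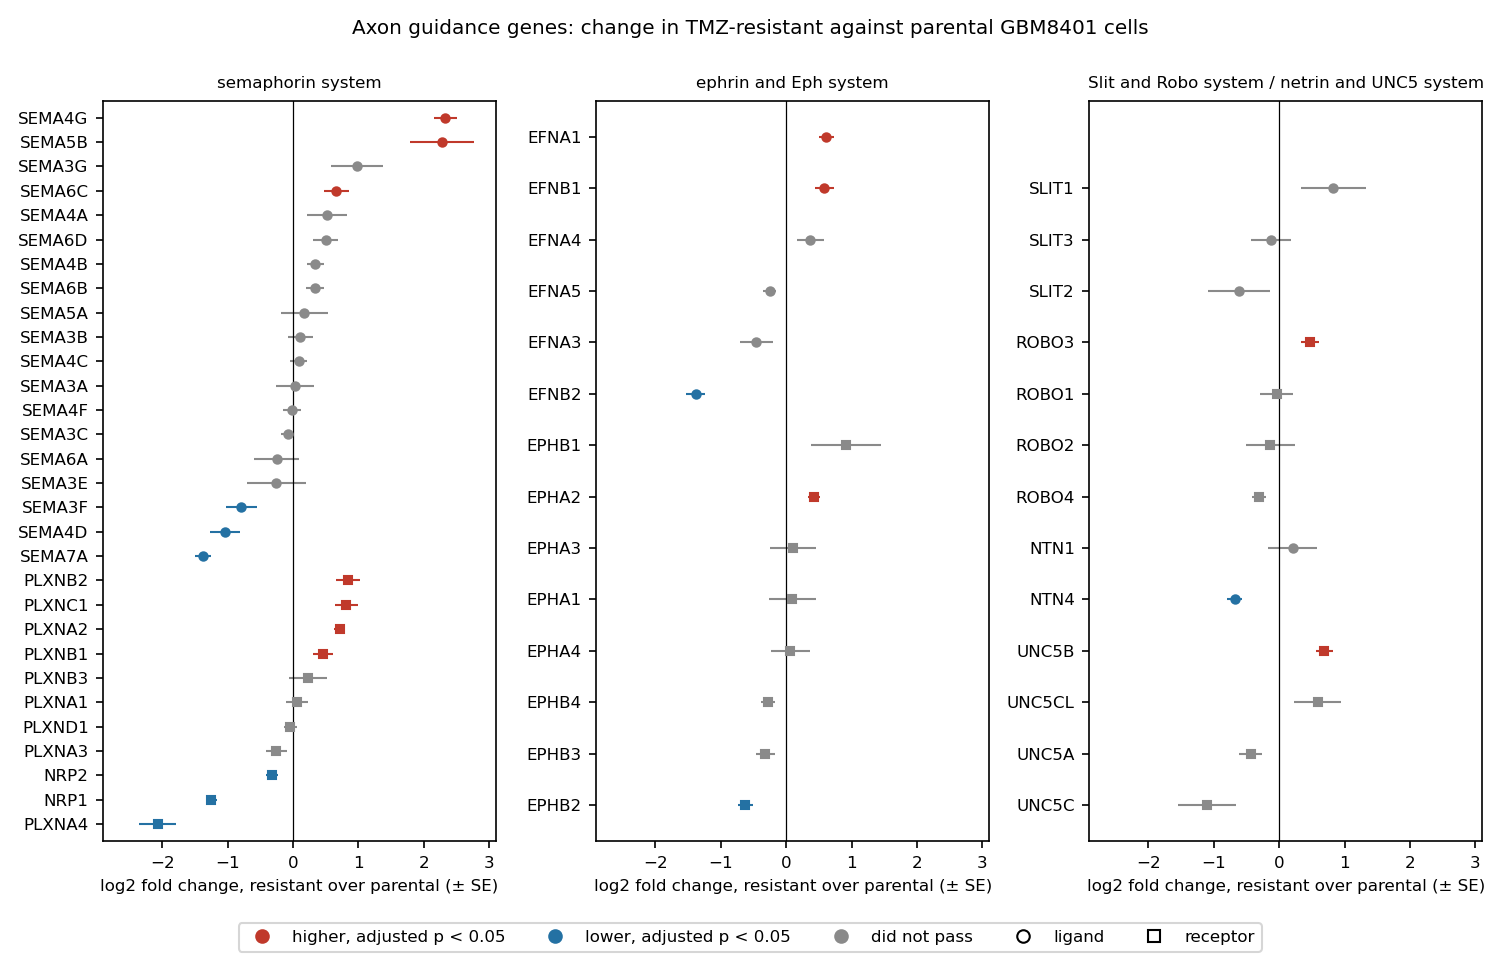
Log2 fold change of the 57 tested guidance genes, resistant over parental, with the standard error as bars. Circles are ligands and squares receptors. Red and blue are genes past the test, 43.3% of tested genes in the semaphorin system beside 37.1% of all genes tested. Within the semaphorin system 7 genes (3 without resistant replicate 1, 2 without resistant replicate 2) lie right of 0 in red and 6 (3 without resistant replicate 2) left of it in blue, and the ephrin-B ligands EFNB1 and EFNB2 lie on opposite sides.

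The remaining 36 tested members did not pass, with log2 fold changes between −1.10 (UNC5C) and 0.98 (SEMA3G). Another 10 members were too low for a test. UNC5D and EPHA5 were listed at 0 in every library, and SEMA3D, EFNA2, EFNB3, EPHA6, EPHA7, EPHA8, EPHA10 and EPHB6 had at most 9.76 scaled fragments.

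Promoter sequences are shown for the ephrin-B ligands, which moved in opposite directions, and for SEMA7A and SEMA4G, a semaphorin that fell and a semaphorin that rose under every alternative setting. They come from RefSeq (GRCh38.p14) and cover 250 bases before to 50 after a transcript start, of which the first listed was taken for SEMA7A and SEMA4G (2 starts each).
EFNB2, chr13:106535613-106535912, minus strand: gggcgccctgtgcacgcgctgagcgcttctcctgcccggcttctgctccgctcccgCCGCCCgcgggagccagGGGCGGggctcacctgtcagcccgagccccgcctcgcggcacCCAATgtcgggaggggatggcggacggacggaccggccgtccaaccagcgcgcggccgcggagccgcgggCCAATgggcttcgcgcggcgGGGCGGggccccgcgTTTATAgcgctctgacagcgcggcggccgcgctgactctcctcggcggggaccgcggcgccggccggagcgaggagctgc
EFNB1, chrX:68828771-68829070, plus strand: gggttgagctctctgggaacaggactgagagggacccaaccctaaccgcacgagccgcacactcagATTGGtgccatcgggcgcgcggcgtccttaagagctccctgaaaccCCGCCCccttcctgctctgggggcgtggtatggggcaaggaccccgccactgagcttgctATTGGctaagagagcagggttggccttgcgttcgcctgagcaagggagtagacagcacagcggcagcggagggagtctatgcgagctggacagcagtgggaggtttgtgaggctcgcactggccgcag
SEMA7A, chr15:74433909-74434208, minus strand: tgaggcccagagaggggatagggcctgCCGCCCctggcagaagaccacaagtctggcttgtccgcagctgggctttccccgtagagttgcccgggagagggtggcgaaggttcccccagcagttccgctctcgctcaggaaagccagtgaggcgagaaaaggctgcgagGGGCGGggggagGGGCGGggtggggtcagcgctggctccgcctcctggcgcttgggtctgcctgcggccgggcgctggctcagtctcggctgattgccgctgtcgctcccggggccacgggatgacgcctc
SEMA4G, chr10:100969254-100969553, plus strand: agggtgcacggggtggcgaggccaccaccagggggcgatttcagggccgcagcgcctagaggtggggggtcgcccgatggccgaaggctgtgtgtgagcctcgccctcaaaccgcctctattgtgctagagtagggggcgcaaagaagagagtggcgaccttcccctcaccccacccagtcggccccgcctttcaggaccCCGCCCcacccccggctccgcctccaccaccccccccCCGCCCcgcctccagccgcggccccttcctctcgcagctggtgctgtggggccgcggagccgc
Capitals mark matches on either strand to the GC box GGGCGG, the CCAAT box CCAAT and the TATA box TATAAA. The EFNB2 window held 3 GC boxes, 2 CCAAT boxes, 1 TATA box and 49 CpG dinucleotides. The EFNB1 window held 1 GC box, 2 CCAAT boxes, no TATA box and 18 CpG. SEMA7A had 3 GC boxes and 23 CpG, and SEMA4G 2 GC boxes and 25 CpG. The EGR1 motif GCGTGGGCG, which can overlap a GC box, and the AP-1 motif TGANTCA had no match in these windows. A GC box was present in 45% of all 35116 promoter windows, a CCAAT box in 34.6%, a TATA box in 11.5%, the AP-1 motif in 7.71% and the EGR1 motif in 0.795%. Among the 90 windows of the 58 guidance genes in the table, 66 (73.3%) held a GC box, 28 a CCAAT box, 3 a TATA box, 2 the EGR1 motif and 1 the AP-1 motif. The median window had 21.5 CpG for guidance genes and 14 for all. The full set of windows includes noncoding genes.

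The largest rises among semaphorin ligands were in genes of low or moderate level. Of the 20 genes 19 were tested, and 3 rose and 3 fell, which is 31.6% called beside 37.1% of all genes. SEMA4G, a membrane semaphorin, had 298 and 344 scaled fragments in resistant libraries, against 58.6 and 67.9 in parental libraries. The rise was 5.02-fold (log2 fold change 2.33 ± 0.18, SE; limma adjusted p = 9.72e-05). SEMA5B, a membrane semaphorin with thrombospondin repeats, stood at 14.3 and 14.4 in resistant libraries and at 2.44 and 1.91 in parental libraries (log2 fold change 2.28 ± 0.49, adjusted p = 7.83e-03). Which of SEMA4G and SEMA5B rose more depends on the pseudocount, since at 0.5 the log2 fold changes were 2.34 for SEMA4G and 2.48 for SEMA5B. SEMA5B reached the level for a test only through the resistant libraries, and without either of them it was not tested. SEMA6C, a transmembrane semaphorin, had 114 and 123 in resistant libraries against 73.2 and 75.5 in parental libraries (0.66 ± 0.19, adjusted p = 0.0265). Its rise was not called without resistant replicate 1 (0.72, adjusted p = 0.106), without resistant replicate 2 (0.61, adjusted p = 0.174) or without parental replicate 1 (0.64, adjusted p = 0.0584).

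SEMA4G sits on distal chromosome 10 (GRCh38, chromosome 10, 100969518 to 100985871, plus strand) among genes that were also higher. Of the 52 other tested protein-coding genes within 2 Mb of it, 33 rose and 1 fell, with a median log2 fold change of 0.59 and a range of −0.30 to 1.98. SEMA4G had the largest log2 fold change of this window. It overlaps MRPL43 on the other strand, a gene of the mitochondrial ribosome with 1339.7 and 1520.2 scaled fragments in resistant libraries and 957 and 1096 in parental libraries (log2 fold change 0.48 ± 0.11, adjusted p = 8.71e-03). The library kit kept strand, but whether the counting used strand is not given in the sources used here, so the split of fragments between SEMA4G and MRPL43 is uncertain. SLIT1, in the same part of the chromosome, had 21 of 33 neighbours higher and 0 lower, with a median of 0.49. Without SEMA4G and SLIT1, 11 members rose and 9 fell.

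**Figure D2:**
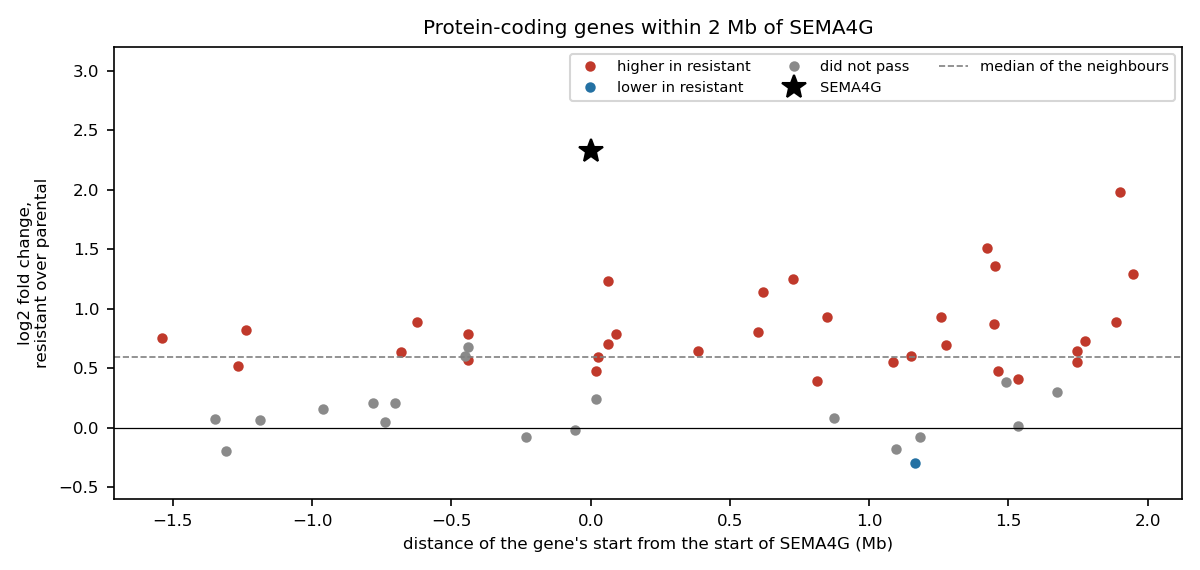
Log2 fold change, resistant over parental, of tested protein-coding genes within 2 Mb of SEMA4G by the distance of their start from its start; the dashed line is the median of the 52 neighbours, 0.59. Most neighbours lie above 0, and SEMA4G (star, 2.33) lies above all of them.

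Among the semaphorins that fell, SEMA7A changed most. It encodes a semaphorin held to the membrane by a lipid anchor, which binds plexin C1 and integrins. SEMA7A had 409.7 and 491 scaled fragments in resistant libraries, against 1117 and 1215 in parental libraries. The groups lay well apart, and the log2 fold change was −1.38 ± 0.12 (SE; adjusted p = 1.51e-04), 2.59-fold lower in resistant cells. Per length, SEMA7A ranked 13 among the members in resistant cells, at 118 scaled fragments per kb of exon, and 5 in parental cells, at 307. SEMA4D, a ligand of the B plexins, had 55.0 and 43.3 in resistant libraries and 109.8 and 93.7 in parental libraries (−1.04 ± 0.23, adjusted p = 9.11e-03), and its call was lost without resistant replicate 2 (−0.87, adjusted p = 0.062). SEMA3F, a secreted ligand that binds NRP2, had 47.4 and 42.5 in resistant libraries and 85.4 and 71.7 in parental libraries (−0.79 ± 0.23, adjusted p = 0.0299). Its call was lost without resistant replicate 1 (−0.87, adjusted p = 0.0876), without resistant replicate 2 (−0.71, adjusted p = 0.152), without parental replicate 1 (−0.66, adjusted p = 0.111) and with scaling to the library total (adjusted p = 0.0501).

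The abundant semaphorins SEMA6B, SEMA4B and SEMA4C did not pass the test. SEMA7A, which fell, was also abundant, at rank 8 of all members per length over the 4 libraries beside ranks 4, 7 and 10. SEMA6B, a transmembrane semaphorin, had 2180.0 and 2581 scaled fragments in resistant libraries and 1642 and 2146 in parental libraries (log2 fold change 0.34 ± 0.14, adjusted p = 0.0994). SEMA4B had 1635 and 1754 in resistant libraries and 1174 and 1522 in parental libraries (0.34 ± 0.13, adjusted p = 0.0676). SEMA4C, a ligand of plexin B2, had 981 and 1096 in resistant libraries and 861 and 1104 in parental libraries (0.09 ± 0.13, adjusted p = 0.644). The groups overlapped for SEMA4C and did not for the other two. SEMA6B and SEMA4B were called higher with TMM scaling (adjusted p = 0.0434 and 0.0213), with scaling to the library total (0.0172 and 8.93e-03) and without parental replicate 2 (log2 fold changes 0.53 and 0.53). SEMA4B was also called with no filter on low values (adjusted p = 0.0484) and with median-of-ratios scaling (0.0458). Of the other members SEMA3A, SEMA3B, SEMA3C, SEMA3E and SEMA3G among secreted ligands and SEMA4A, SEMA4F, SEMA5A, SEMA6A and SEMA6D among membrane ligands did not pass. SEMA3G, a secreted ligand, had 24.9 and 16.1 in resistant libraries and 8.95 and 10.5 in parental libraries (adjusted p = 0.0901).

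Plexins, the semaphorin receptors, were mostly higher or level, and the neuropilins were both lower. Of 9 plexins 4 rose and 1 fell, which is 55.6% called beside 37.1% of all genes. PLXNB2, a receptor for class 4 semaphorins, was the most abundant guidance gene per length, with 14319 and 18572 scaled fragments in resistant libraries and 7740 and 10733 in parental libraries. Both resistant libraries lay above both parental ones (log2 fold change 0.84 ± 0.18, adjusted p = 0.0158). The call was lost without resistant replicate 2 (0.65, adjusted p = 0.0871), with no filter on low values (adjusted p = 0.18) and without trend and robust moderation (adjusted p = 0.0759). PLXNA2, a receptor for class 3 and class 6 semaphorins, had 5172 and 5822 in resistant libraries against 3371 and 3329 in parental libraries (0.71 ± 0.08, adjusted p = 4.70e-04). PLXNC1, the receptor of SEMA7A, had 156 and 158 in resistant libraries against 89.5 and 88.0 in parental libraries (0.82 ± 0.17, adjusted p = 7.33e-03). So SEMA7A fell while its receptor gene rose. The call of PLXNC1 was lost without resistant replicate 1 (adjusted p = 0.0517) or resistant replicate 2 (adjusted p = 0.0549), with log2 fold changes of 0.83 and 0.81. PLXNC1 overlaps CEP83 on the other strand, which had 431 and 425 in resistant libraries and 482 and 508 in parental libraries and did not pass.

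PLXNB1, the main receptor of SEMA4D, had 327 and 332 scaled fragments in resistant libraries and 211 and 271 in parental libraries (log2 fold change 0.46 ± 0.15, adjusted p = 0.045). It was lost without resistant replicate 1 (0.47, adjusted p = 0.149), resistant replicate 2 (0.45, adjusted p = 0.167) or parental replicate 1 (0.28, adjusted p = 0.182), and without trend and robust moderation (adjusted p = 0.109). PLXNA4, a partner of the neuropilins in the response to SEMA3A, showed the largest fall of all members, with 18.1 and 15.3 in resistant libraries against 66.7 and 79.4 in parental libraries. This was 4.18-fold lower (−2.07 ± 0.28, adjusted p = 9.59e-04). PLXNA1, ranked 3 of all members per length, had 7144 and 9054 in resistant libraries and 6677 and 8863 in parental libraries. These ranges overlapped (0.06 ± 0.17, adjusted p = 0.801), and replicate 2 was the higher library in each group. PLXNA3, PLXNB3 and PLXND1 did not pass, at log2 fold changes of −0.25, 0.22 and −0.04.

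NRP1, a receptor for class 3 semaphorins and for VEGF, had 725 and 788 scaled fragments in resistant libraries, against 1786 and 1807 in parental libraries. It had the smallest adjusted p of all members, 7.69e-05, with a log2 fold change of −1.25 ± 0.09 (SE), 2.37-fold lower. NRP2, which prefers SEMA3F and VEGF-C, had 1754 and 1789 in resistant libraries against 2071 and 2384 in parental libraries (−0.33 ± 0.09, adjusted p = 0.0232). NRP2 was not called without resistant replicate 1 (−0.31, adjusted p = 0.109), resistant replicate 2 (−0.34, adjusted p = 0.0788) or parental replicate 2 (−0.23, adjusted p = 0.106), nor without trend and robust moderation (adjusted p = 0.114). Per length the ratio of NRP1 to NRP2 was 0.499 and 0.531 in resistant libraries and 1.04 and 0.914 in parental libraries. With 2 libraries against 2 an exact permutation test cannot give a two-sided p below 0.333, so such ratios were not tested.

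The make-up of the plexin pool differed with these changes. Summed per length, plexins gave 3253 and 4099.7 scaled fragments per kb in resistant libraries and 2154 and 2828 in parental libraries, and neuropilins 189 and 197 against 304 and 328. PLXNB2 made up 60.7% and 62.4% of the plexin sum in resistant libraries and 49.5% and 52.3% in parental libraries. PLXNA1 took 20.1% and 20.2% in resistant libraries and 28.3% and 28.6% in parental libraries. The per-length ratio of PLXNB2 to PLXNA1 was 3.02 and 3.09 in resistant libraries and 1.75 and 1.83 in parental libraries.

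**Figure D3:**
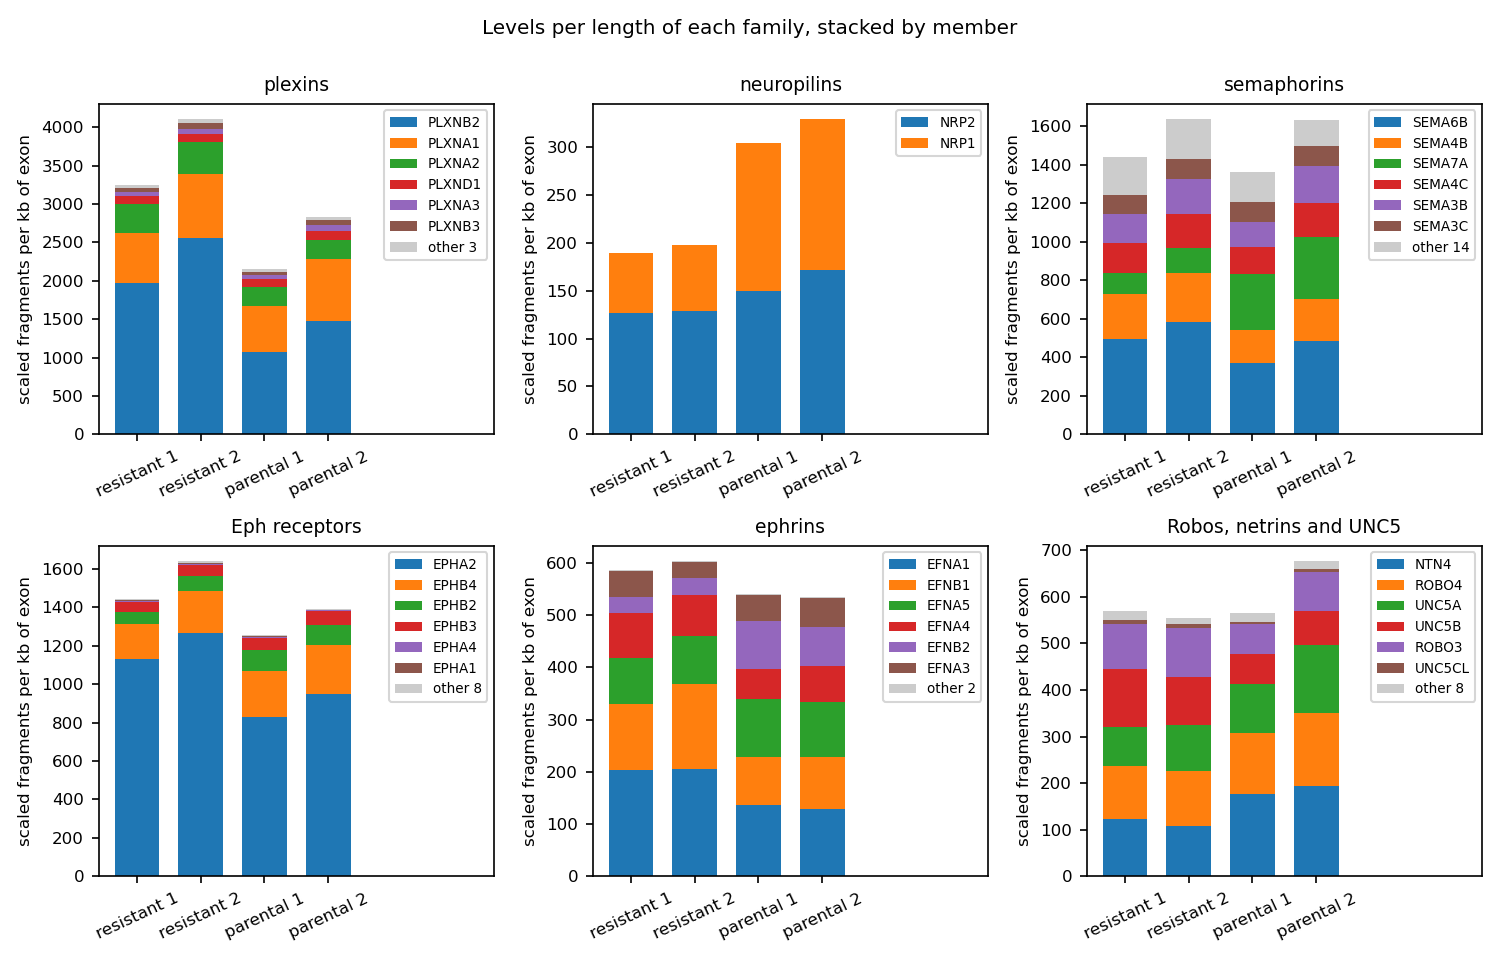
Scaled fragments per kb of exon in each library, stacked by member for 6 families, with the resistant libraries left of the parental ones. The plexin bars are taller in resistant libraries, mostly through PLXNB2, and the neuropilin bars are shorter, mostly through NRP1.

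Ephrin ligands changed in a member-specific way. Of 8 ephrin genes 6 were tested, 2 rose and 1 fell, which is 50% called beside 37.1% of all genes. EFNB2, a transmembrane ephrin that binds EPHB4 and marks arterial vessels, had 158 and 161 scaled fragments in resistant libraries, against 460.4 and 377 in parental libraries. It was 2.60-fold lower (log2 fold change −1.38 ± 0.15, SE; adjusted p = 3.48e-04). EFNB1, its sister ligand, had 417 and 542 in resistant libraries against 303 and 330 in parental libraries (0.59 ± 0.15, adjusted p = 0.0162), and was not called without resistant replicate 2 (0.40, adjusted p = 0.151) or without trend and robust moderation (adjusted p = 0.0784). Per length the ratio of EFNB1 to EFNB2 was 3.995 and 5.11 in resistant libraries and 0.998 and 1.33 in parental libraries. EFNB1 thus made up 79.5% and 83.1% of the ephrin-B sum in resistant libraries and 49.6% and 56.5% in parental libraries.

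EFNA1, the main ligand of EPHA2, had 518 and 520 scaled fragments in resistant libraries, against 347 and 329 in parental libraries (log2 fold change 0.62 ± 0.11, adjusted p = 3.57e-03). Its neighbours in a cluster on chromosome 1 did not pass. EFNA3 had 91.9 and 58.6 in resistant libraries and 97.0 and 105 in parental libraries, and EFNA4 had 108 and 100 in resistant libraries and 73.0 and 88.0 in parental libraries (adjusted p = 0.195 and 0.191). EFNA5, on chromosome 5, did not pass either (−0.25 ± 0.10, adjusted p = 0.0918). EFNA1 gave 47.8% and 50.4% of the ephrin-A sum per length in resistant libraries and 38.5% and 36.1% in parental libraries.

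Of 14 Eph receptors 8 were tested, 1 rose and 1 fell, which is 25% called beside 37.1% of all genes. EPHA2, a receptor tyrosine kinase known in glioblastoma, was second of all members per length, with 4703 and 5262 scaled fragments in resistant libraries and 3457 and 3945 in parental libraries (log2 fold change 0.43 ± 0.09, adjusted p = 8.16e-03). Receptor and ligand, EPHA2 and EFNA1, rose together. EPHA2 made up at least 98.2% of the EphA sum per length in every library, and EPHA1, EPHA3 and EPHA4 did not pass, at 0.07 to 0.10 on the log2 scale. EPHB2, a kinase linked to glioma cell migration, had 776 and 985 in resistant libraries against 1359 and 1333 in parental libraries (−0.62 ± 0.12, adjusted p = 4.82e-03). Without trend and robust moderation EPHA2 and EPHB2 did not pass (adjusted p = 0.0813 and 0.0589). EPHB4, the receptor of EFNB2 and the most abundant B receptor, had 1186 and 1415 in resistant libraries and 1519.6 and 1625 in parental libraries (−0.28 ± 0.10, adjusted p = 0.0685), and it passed without resistant replicate 2 (−0.41, adjusted p = 0.0404). EPHB3 and EPHB1 did not pass, at −0.32 and 0.92. EPHB4 overlaps SLC12A9 and EPHA1 overlaps ZYX on the other strand, so their levels are uncertain in the same way as that of SEMA4G.

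In the Slit and Robo system 1 of 7 genes changed, the receptor gene ROBO3, which is 14.3% called beside 37.1% of all genes. Of the Slits 0 of 3 passed, also at an unadjusted p under 0.05. ROBO3, which controls midline crossing of axons, had 682 and 747 scaled fragments in resistant libraries and 449.9 and 584 in parental libraries (log2 fold change 0.48 ± 0.14, adjusted p = 0.028). It was not called without resistant replicate 1 (0.54, adjusted p = 0.0611), resistant replicate 2 (0.41, adjusted p = 0.141) or parental replicate 1 (0.29, adjusted p = 0.101), nor without trend and robust moderation (adjusted p = 0.118). ROBO4, its neighbour on chromosome 11 and a receptor known from endothelium, had 800 and 818 in resistant libraries and 911 and 1101 in parental libraries (−0.31 ± 0.11, adjusted p = 0.0607). Per length the ratio of ROBO3 to ROBO4 was 0.853 and 0.914 in resistant libraries and 0.494 and 0.531 in parental libraries. ROBO1 and ROBO2, the axonal receptors, had log2 fold changes of −0.04 and −0.14 at levels of at most 67.8. The Slit ligands were low, with at most 70.8 scaled fragments for SLIT3, and their log2 fold changes were 0.83 for SLIT1, −0.62 for SLIT2 and −0.13 for SLIT3. Without parental replicate 1 the count was 0 higher and 1 lower, and without parental replicate 2 it was 2 higher and 0 lower.

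In the netrin and UNC5 system the ligand gene NTN4 fell and the receptor gene UNC5B rose, among 6 tested genes. That is 33.3% called, beside 37.1% of all genes. NTN4, a netrin of basement membranes that binds laminin, had 517 and 454 scaled fragments in resistant libraries, against 739 and 812 in parental libraries (log2 fold change −0.68 ± 0.11, adjusted p = 2.46e-03). NTN1, the classical netrin, was low, with 18.1 and 14.4 in resistant libraries and 15.5 and 12.4 in parental libraries. UNC5B, a netrin receptor and dependence receptor, had 849 and 701 in resistant libraries against 448 and 511 in parental libraries (0.69 ± 0.13, adjusted p = 4.03e-03). Its 37 tested neighbours within 2 Mb on chromosome 10 had a median log2 fold change of 0.10, with 7 higher and 10 lower. UNC5A had 361 and 436 in resistant libraries and 458 and 630 in parental libraries (−0.44 ± 0.17, adjusted p = 0.0824). The per-length ratio of UNC5B to UNC5A was 1.499 and 1.03 in resistant libraries and 0.624 and 0.516 in parental libraries. UNC5C and UNC5CL did not pass, at −1.10 and 0.59. UNC5CL overlaps OARD1 on the same strand, a gene with a mean of 537 scaled fragments over the libraries, so the level of UNC5CL is uncertain. Without parental replicate 1, 2 genes of this system were lower.

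**Figure D4:**
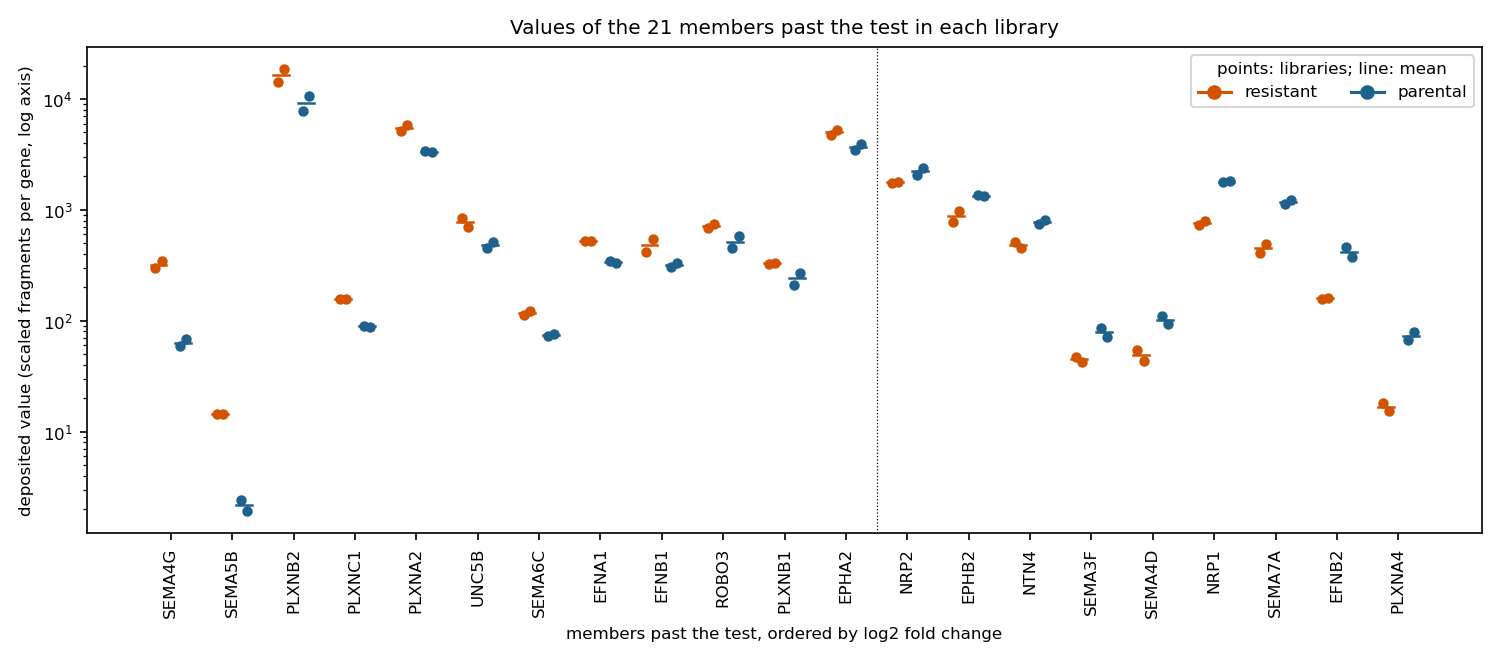
Deposited values (scaled fragments per gene, log axis) of the 21 members past the test in each library, resistant in orange left of parental in blue, with the group mean as a line. In all 21 the libraries of the groups do not overlap, as in 68.6% of all genes tested, and the test favours such genes. SEMA4G, SEMA5B and PLXNA4 show the widest gaps, and SEMA5B reached the level for a test only through the resistant libraries.

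The 21 called members ranged widely in level, and the calls differed in how far they depended on the processing. SEMA4G, PLXNA2, UNC5B and EFNA1 as higher and PLXNA4, EFNB2, SEMA7A, NRP1 and NTN4 as lower passed under all 13 alternative settings, 9 members in all. None of the 21 changed direction under any of them, but only the scalings could reverse a member whose groups do not overlap.

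Of 22 further cues and receptors of the same pathways 15 were tested, 1 rose and 3 fell. That is 26.7% called, beside 37.1% of all genes. NEO1 encodes neogenin, a receptor for netrins and RGM proteins, and had 742 and 777 scaled fragments in resistant libraries, against 247 and 190.3 in parental libraries. It was 3.49-fold higher (log2 fold change 1.80 ± 0.15, SE; adjusted p = 1.23e-04), while DCC, the related netrin receptor, was at most 0.753 in any library. MET, a receptor kinase that can pair with B plexins, had 3151 and 3189 in resistant libraries against 7172 and 7460.3 in parental libraries (−1.21 ± 0.07, adjusted p = 3.79e-05). L1CAM, an adhesion molecule that works with neuropilin-1 in the response to SEMA3A, had 1869.8 and 2368 in resistant libraries against 3138 and 4203 in parental libraries (−0.79 ± 0.17, adjusted p = 0.0126). Without trend and robust moderation L1CAM was not called. NTNG1, netrin-G1, had 3.01 and 3.40 in resistant libraries against 17.9 and 16.3 in parental libraries (−2.10 ± 0.45, adjusted p = 7.70e-03), and it reached the level for a test only through the parental libraries.

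Of 58 intracellular effectors that relay guidance signals to the cytoskeleton, 55 were tested, 5 rose and 20 fell. That is 45.5% called, with a median log2 fold change of −0.14, beside 37.1% and −0.02 for all genes and 39.7% called among protein-coding genes. By direction, 16.2% of all genes tested were higher and 20.9% lower. Of the 13313 protein-coding genes tested, 2114 were higher and 3166 lower, so falls also outnumbered rises there. DPYSL3, of the collapsin response mediators, had 5009.9 and 5136 scaled fragments in resistant libraries, against 9569 and 8939 in parental libraries (−0.87 ± 0.07, adjusted p = 1.32e-04). LIMK2, a kinase of cofilin, had 675 and 752 in resistant libraries against 1302 and 1353 in parental libraries (−0.90 ± 0.10). The actin oxidase gene MICAL2 had 8615 and 9037 against 12821 and 12126 (−0.50 ± 0.07). ABLIM1 and ABLIM3, which encode related actin-binding proteins, moved in opposite directions. ABLIM3 had 1199.6 and 1325 in resistant libraries against 2390.0 and 2409 in parental libraries (−0.93 ± 0.09), whereas ABLIM1 had 829 and 955 against 328 and 338 (1.42 ± 0.11). SRGAP3, a GTPase-activating protein of the Slit and Robo pathway, had 346 and 433 in resistant libraries against 84.3 and 109.9 in parental libraries (2.00 ± 0.19), and DOCK1, an activator of Rac, had 4939.9 and 5316 against 3166 and 3630.2 (0.60 ± 0.09). Among these 7 genes the adjusted p was lowest for ABLIM1 (1.18e-04) and highest for DOCK1 (0.001498). ABLIM1 and DOCK1 lie on distal chromosome 10, where 7 of 16 and 5 of 11 tested neighbours within 2 Mb were higher (0 and 2 lower), with medians of 0.36 and 0.42. Without resistant replicate 1 the effector count was 4 higher and 11 lower, with scaling to the library total 8 higher and 14 lower, and without trend and robust moderation 5 higher and 7 lower.

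Several of these genes also serve in blood vessels, so endothelial markers were measured beside them. The 8 endothelial markers summed to 1026 and 905 scaled fragments in resistant libraries and to 1444 and 1650 in parental libraries. Of the 7 tested, TIE1, CDH5 and TEK fell and none rose, which is 42.9% called and near the 37.1% of all genes. TIE1 had 24.1 and 11.9 in resistant libraries against 219.6 and 267 in parental libraries, and CDH5 had 158 and 119.7 against 286 and 404. PECAM1, VWF, KDR and ERG did not pass, and CLDN5 had at most 10.5. None of the 8 was at 0 in any library. Their part in the falls of NRP1 and EFNB2, which vessels also express, was not tested, and fewer cells of a type and less RNA per cell cannot be told apart in bulk samples. Of the other lists, 1 of 5 tested neuron markers (RBFOX3), 1 of 4 hematopoietic markers (CD68) and 2 of 4 epithelial markers (KRT8 and KRT18) rose. Of the fibroblast and pericyte markers 0 of 7 passed. These shares are 20%, 25%, 50% and 0%, beside 37.1% of all genes.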

How the data were processed

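Values are the deposited per-gene numbers of 4 libraries, a signal that the authors scaled between libraries and did not divide by gene length. The submitters' processing notes name bcl2fastq, Trimmomatic 0.36, HISAT2 2.1.0, SAMtools 1.2, Cufflinks 2.2.1 with Cuffdiff, and GRCh38.p10. The libraries came from a strand-specific kit, per the labels' protocols, while neither a strand setting for counting nor an annotation release is given in the sources used here.

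Genes were named through GENCODE 29 (57881 of 58219 IDs). Genes with a value of at least 10 in at least 2 libraries were tested on log2(value + 1) with limma 3.58.1 in R 4.3.3 (group only, trend and robust moderation, two-sided, Benjamini-Hochberg over 16132 genes, threshold 0.05). Fold changes use that same log2(value + 1) scale, so those of low genes are understated. The pipeline was tested on simulated data. Levels per length divide by the union of exons. Overlaps between genes were taken from their start and end, and whether their exons overlap was not measured.

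Members and lists were chosen with earlier results of these data known. Values per library are given for members past the test, for the 10 highest per length, and for up to 4 called genes per direction with the smallest adjusted p in the effector and further cue lists. SEMA3G, EFNA3, EFNA4, ROBO4, UNC5A and NTN1 were added after their values were seen. A gene that the rule names in the effector list is not reported here. The low values step by what 1 fragment is worth, but the steps were not whole often enough for count tests. Alternatives were other pseudocounts, filters, scalings and moderation, a replicate block, and each library left out.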

Additional observations from a re-analysis of the deposited data

How the results depend on the processing

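None of the 21 called members reversed under the 13 alternatives, of which only the scalings could reverse a member whose groups do not overlap. Count tests planned on recovered fragments were not run, since too few values came out as whole fragments. Leaving out 1 library gave 5 to 16 higher and 7 to 11 lower members, 2 to 10 and 3 to 6 in the semaphorin system, 2 to 4 and 2 to 3 in the ephrin system, 0 to 2 and 0 to 1 in the Slit and Robo system, 1 to 2 lower in the netrin system, 4 to 6 and 11 to 19 effectors, and 1348 to 2783 and 2079 to 3147 of all genes. PLXNA1 and SEMA4C, neither called, ranged from −0.14 to 0.27 and from −0.09 to 0.27, and reversed without resistant replicate 2 (PLXNA1, −0.11) and parental replicate 1 (PLXNA1 −0.14, SEMA4C −0.0909). Without trend and robust moderation 1771 genes were higher and 1915 lower, with 1 higher and 1 lower ephrin-system gene, 0 higher Slit and Robo genes and 7 lower effectors. Scaling to the library total gave 3665 higher and 2773 lower genes (56.9% higher, main 43.7%), with a median log2 fold change of 0.08 over all genes, and 8 higher effectors. The replicate numbers are shared by the groups but nothing in the labels pairs them, and deviations of same-numbered libraries correlated at 0.265 over genes. With the replicate block 17 members were higher and 17 lower, with 11 higher semaphorin-system genes, 6 lower ephrin-system, 1 lower Slit and Robo, 3 lower netrin-system and 8 higher effector genes, and 3903 higher and 4721 lower genes in all. With the longest transcript as length, 8 of 20 shares of a family moved by over 1 SD. Depth and 2 libraries a group limit the 10 members too low for a test.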
